A study of Mus musculus with 6 samples.

Results

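Subunit c of mitochondrial ATP synthase is encoded in the mouse by 3 paralogous genes, Atp5g1, Atp5g2 and Atp5g3 (Atp5mc1, Atp5mc2 and Atp5mc3 in newer nomenclature). All probe sets annotated to 1 of these symbols alone were taken, which gave 6 of the 45101 probe sets on the array (2 for Atp5g1, 3 for Atp5g2 and 1 for Atp5g3), or 3 of 18193 gene symbols. No probe set listed a paralog together with another gene. The genes were chosen by measured values, the signal of Atp5g1 in both macroH2A hairpin lines against control, so differences from control are given for the paralogs as a description, without a test.

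Subunit c is a small protein with a pair of membrane-spanning helices, and a ring of identical copies forms the rotor of the enzyme. Protons that flow back into the matrix turn this ring, and the rotation drives ATP formation in the F1 head. The 3 genes encode the same mature peptide behind different mitochondrial targeting presequences, and the Atp5g1 form is known as the one whose transcript level varies most with physiological demand, while Atp5g2 and Atp5g3 are regarded as more constitutive.

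The cells were B16-F1, a melanoma line from mouse (strain C57BL/6J). Lentivirus had been used to install an shRNA stably, either against GFP (the control) or against macroH2A1 or macroH2A2 (the hairpin lines), and each of these 3 lines was measured on 2 arrays. MacroH2A1 and macroH2A2 are histone H2A variants with a large macro domain. Whether a line was 1 clone or a pool of transduced cells, and how many different hairpins were used per target, is not stated in the labels, so that any difference between lines is a difference between these particular samples. On the targeted genes, Macroh2a1 read 444.2 and 319.1 in the macroH2A1 hairpin line against 1212.7 and 1262.4 in control, and 1271.2 and 1170.5 in the macroH2A2 hairpin line. Macroh2a2 was at 2.0 to 11.9 on all 6 arrays, below the signal filter of 10.4 on average. It read 11.9 and 8.3 in the macroH2A2 hairpin line against 6.1 and 7.5 in control, so it was not lower there. At such signals it does not check the macroH2A2 shRNA label. All 10 melanocyte markers (Dct, Pmel, Tyr and others) were above the filter, with a summed signal of 41630.1 to 53298.2, while the 8 leukocyte, 6 fibroblast, 5 keratinocyte and 5 endothelial markers summed to no more than 101.1, 181.7, 41.8 and 51.6 on any array. The signals are linear and were brought to a common trimmed mean by the authors, and the number of arrays limits the precision of every value.

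The paralogs lie on different chromosomes, Atp5g1 on 11, Atp5g2 on 15 and Atp5g3 on 2, and their upstream sequences are shown because the paralogs differed in how far they moved between the lines. All 3 genes matched an entry of the RefSeq promoter table (GRCm38.p6). The stretch before the Atp5g1 start, chr11:96075695-96075881, and that before the Atp5g2 start, chr15:102671048-102671297, are given on the minus strand, which carries the genes, from 5′ to 3′. Capitals mark CCAAT or its reverse complement ATTGG in Atp5g1 and the palindromic site of nuclear respiratory factor 1 in Atp5g2. Bases of the Atp5g1 window that fall inside the annotated gene were left out, and the Atp5g3 window lies wholly inside its annotated gene and is not shown.
Atp5g1: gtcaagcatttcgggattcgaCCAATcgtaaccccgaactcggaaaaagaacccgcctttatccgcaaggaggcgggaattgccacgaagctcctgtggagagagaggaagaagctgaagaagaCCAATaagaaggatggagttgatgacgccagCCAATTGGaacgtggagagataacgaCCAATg
Atp5g2: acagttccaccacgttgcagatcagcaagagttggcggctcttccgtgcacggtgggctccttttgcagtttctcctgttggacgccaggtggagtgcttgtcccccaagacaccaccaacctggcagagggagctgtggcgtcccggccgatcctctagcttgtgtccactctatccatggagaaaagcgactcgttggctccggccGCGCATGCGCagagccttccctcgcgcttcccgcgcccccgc
Over the 250 bases before each start, CCAAT was found on either strand at 5 positions in Atp5g1, which begin at -229, -126, -95, -92 and -69 relative to the start and of which those at -95 and -92 overlap as a palindrome. It was found at 1 position in Atp5g3 and at 0 in Atp5g2. Of 32851 RefSeq windows of the same length 33.8% held at least 1 CCAAT and 0.213% held 5 or more. The bound of 5 was taken from Atp5g1 itself, so the latter share describes its window and is no test. The E-box CACGTG was present once each in Atp5g1 and Atp5g3, at -44 and -238 (both outside the stretches shown), and in 6.02% of windows. The palindrome named for nuclear respiratory factor 1, in capitals above, was present in Atp5g2 at -42 and in 0.782% of windows. CCGGAAGT, a site of ETS family factors, and the GC box GGGCGG were in none of the 3 windows, against 2.88% and 32.7% of all windows, both strands searched. These matches are letters in a window and say nothing about binding.

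Atp5g1 was far higher in both macroH2A hairpin lines than in the control line. Its bright probe set read 357.2 and 481.5 on the control arrays, 1167.6 and 1396.2 on the macroH2A1 shRNA arrays and 1600.2 and 1337.7 on the macroH2A2 shRNA arrays. Every array of either macroH2A line was therefore above the higher control array by a wide margin, with no overlap. The means were 419 ± 87.9 in control, 1282 ± 162 and 1469 ± 186 (SD, n = 2 arrays each), and the ratios of mean signals to control were 3.06 and 3.50. On the scale of log2(signal + 16), on which all log2 differences here are given, the differences from control were 1.59 (SE 0.18) and 1.78 (SE 0.18). Among all 27025 probe sets that passed the filter, these differences ranked 2 and 1 from the top. Because the gene was chosen for these differences, the ranks describe it and are no evidence of their own. In bulk RNA, a change in the fraction of cells with the transcript and a change in the amount per cell cannot be told apart.

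The replicate arrays of a line differed less than either macroH2A line differed from control, and not in a common direction. Replicate 1 minus replicate 2 was -0.41 in control, -0.25 in the macroH2A1 hairpin line and 0.26 in the macroH2A2 hairpin line for Atp5g1. Within replicate set 1 the differences from control were 1.67 and 2.11, and within set 2 they were 1.51 and 1.44, for macroH2A1 and macroH2A2 shRNA in that order.

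**Figure D1:**
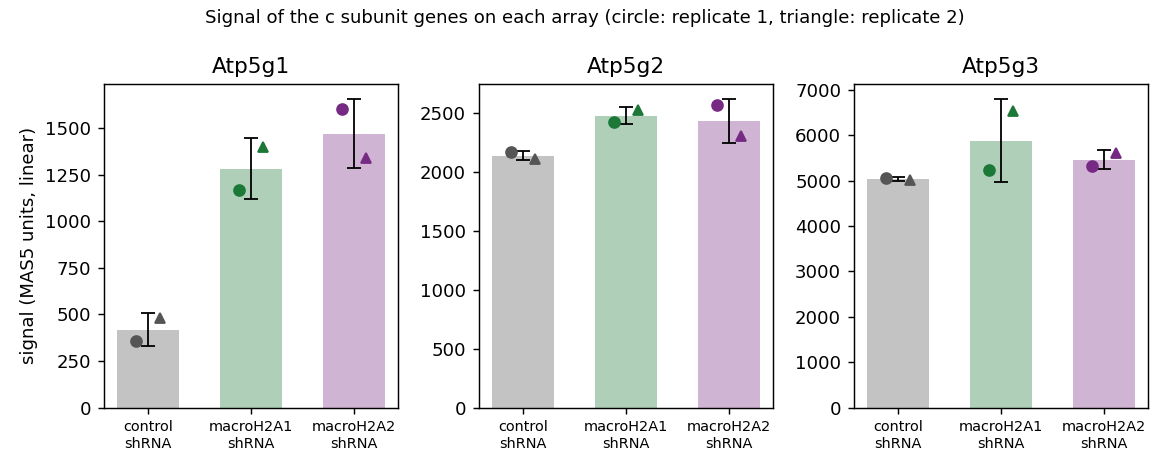
Signal of the brightest probe set of Atp5g1, Atp5g2 and Atp5g3 (linear units, axis from 0, a scale of its own per gene) in the control, macroH2A1 and macroH2A2 hairpin lines. Bars are means of 2 arrays, error bars the SD, circles replicate 1 and triangles replicate 2. Atp5g1 lies at 357.2 to 481.5 in control and at 1167.6 to 1600.2 in the other lines, while Atp5g2 and Atp5g3 stay within 2108.6 to 2560.8 and 5003.7 to 6525.2.

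Atp5g2 was slightly above control in both lines. Its bright probe set read 2164.2 and 2108.6 in control, 2424.3 and 2525.9 in the macroH2A1 hairpin line and 2560.8 and 2299.6 in the macroH2A2 hairpin line. The 4 arrays of the macroH2A lines lay above both control arrays, by a ratio of means of 1.16 and 1.14 and by log2 differences of 0.21 (SE 0.11) and 0.18 (SE 0.11).

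Atp5g3 read 5056.8 and 5003.7 in control, 5234.1 and 6525.2 in the macroH2A1 hairpin line and 5313.1 and 5611.1 in the macroH2A2 hairpin line. Here too the 4 arrays lay above control, but the macroH2A1 shRNA replicates differed by 0.32 on the log2 scale, which is more than their mean difference from control of 0.22 (SE 0.12). The difference for macroH2A2 shRNA was 0.12 (SE 0.12). After quantile normalization both differences of Atp5g3 shrank to 0.02 and 0.03, and those of Atp5g2 to 0.15 and 0.12, while Atp5g1 kept 1.59 and 1.77. All 4 arrays above both control arrays was the case for 5.83% of the tested probe sets, and since the contrast with control guided the choice of genes, nothing is read from this having occurred for all 3 bright probe sets.

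Set paralog against paralog, the excess of Atp5g1 was present on every array of both macroH2A lines. Each array was expressed as its log2 difference from the mean of the control arrays of the same probe set, since signals of different probe sets cannot be compared as levels. Atp5g1 stood at 1.46 and 1.71 on the macroH2A1 shRNA arrays and at 1.91 and 1.65 on the macroH2A2 shRNA arrays. Atp5g2 stood at 0.18, 0.24, 0.26 and 0.11 on the same arrays, and Atp5g3 at 0.06, 0.37, 0.08 and 0.16. Atp5g1 minus Atp5g2 was 1.37 ± 0.14 in the macroH2A1 hairpin line and 1.60 ± 0.07 in the macroH2A2 hairpin line, against 0 ± 0.32 in control by construction (SD, n = 2). Atp5g1 minus Atp5g3 was 1.37 ± 0.04 and 1.66 ± 0.24. Atp5g2 minus Atp5g3 was -0.01 ± 0.18 and 0.06 ± 0.16, so that these paralogs differed from each other by less than the spread between replicates. Both comparisons share the 2 control arrays, and the excess of Atp5g1 in both lines therefore rests on the same control values.

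The macroH2A lines were then compared with each other. The choice of the genes did not rest on this contrast itself, but it did use the Atp5g1 values of both lines. For Atp5g1 the interval and adjusted p below are therefore given as a description. Atp5g1 was 0.19 (SE 0.18) higher in the macroH2A2 hairpin line, with a 95% interval from -0.23 to 0.62, and the arrays of the lines overlapped. The limma adjusted p over all tested probe sets was 1. Atp5g2 differed by -0.03 (interval -0.28 to 0.23) and Atp5g3 by -0.10 (interval -0.38 to 0.18), each with a limma adjusted p of 1 and overlapping arrays. In this contrast limma called 0 of 27025 probe sets (0.00%), with 739 (2.73%) at an unadjusted p under 0.05 and 1 called with the replicate block. The order of Atp5g1, lowest in control, then macroH2A1 shRNA, then macroH2A2 shRNA, is thus not resolved between the latter lines, and the intervals leave room for a moderate difference.

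The other probe sets of the family were dim, and none of them was above control without overlap. The second Atp5g1 probe set read 12.9 and 4.1 in control, 14.4 and 8.5 in the macroH2A1 hairpin line and 6.7 and 12.5 in the macroH2A2 hairpin line. It averaged 9.85 signal units, under the filter, and its groups overlapped. The bright Atp5g1 probe set carries the suffix that the manufacturer gives to probe sets matching several transcripts of 1 gene, and the data do not show which Atp5g1 transcript was higher. For Atp5g2, a further probe set averaged 20.5 signal units and read 34.6 and 17.7 in control and 14.1 to 21.0 on the 4 arrays of the hairpin lines, which overlapped control, with log2 differences of -0.29 (SE 0.29) and -0.31 (SE 0.29). The last Atp5g2 probe set was at 0.5 to 7.5 on all arrays and bears the suffix for probes that may also match other sequences. It read 7.5 and 3.4 in control, 1.3 and 1.3 in the macroH2A1 hairpin line and 2.9 and 0.5 in the macroH2A2 hairpin line. Though under the filter, it thus lay below control without overlap, as did 14.9% and 16.2% of tested probe sets. In all, 4 of the 6 probe sets passed the filter.

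The remaining subunits of the enzyme were close to control and none approached the difference of Atp5g1. The list holds the catalytic F1 head with its central stalk (Atp5a1, Atp5b, Atp5c1, Atp5d, Atp5e) and the membrane Fo part with the peripheral stalk (Atp5pb, Atp5h, Atp5j, Atp5o, Atp5j2, Atp5k, Atp5l, Atp5md, Atp5mpl). These are 14 of 16 listed subunits, as mt-Atp6 and mt-Atp8, the mitochondrially encoded ones, were not matched to a probe set and are not analysed here. All of the 14 passed the filter, and each was represented by its brightest probe set. In the macroH2A1 hairpin line all 14 were above control, with differences from 0.08 to 0.28 and a median of 0.18, but 10 of 14 and a median of 0.07 after quantile normalization. In the macroH2A2 hairpin line 12 of 14 were above control, with differences from -0.04 to 0.20 and a median of 0.11, or 11 of 14 and 0.03 after quantile normalization. Of all tested probe sets 44.4% and 44.3% were above control before that normalization, and their median was -0.03 in both contrasts. After quantile normalization the median of all tested probe sets was 0.00 and 0.01. Median centring moved the subunits the other way. It put all 14 above control in each line, with medians of 0.25 and 0.19, beside 0.04 for all tested probe sets in both contrasts. The size of the small rise thus depends on the normalization.

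With limma, 0 of the 14 passed an adjusted p of 0.05 in either contrast, where 0 of 27025 (0.00%) passed at all. With the replicate set as a block 0 of 14 passed too (smallest adjusted p 0.416 and 0.597), beside 52 (0.192%) and 39 (0.144%) of all probe sets. At an unadjusted p under 0.05, 2 of 14 were higher in the macroH2A1 hairpin line, Atp5l, subunit g, and Atp5mpl, a small membrane subunit, against 2.11% of all probe sets. Atp5l read 2621.6 and 2992.4 in control and 3310.1 and 3410.4 in that line (0.26, SE 0.11). Atp5mpl read 2976.7 and 2813.2 against 3403.1 and 3620.8 (0.28, SE 0.10), whereas its macroH2A2 shRNA arrays, at 2885.7 and 2771.0, overlapped control. Arrays above control without overlap were seen for 10 of 14 subunits in the macroH2A1 hairpin line and for 8 in the macroH2A2 hairpin line, against 13.0% of all probe sets in each. Other lists exceeded that share too, in the same order with 29 and 26 of 57 respiratory chain subunits and 8 and 3 of 10 melanocyte markers. Such counts are thus not particular to this enzyme, and they are given on the deposited scale only.

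**Figure D2:**
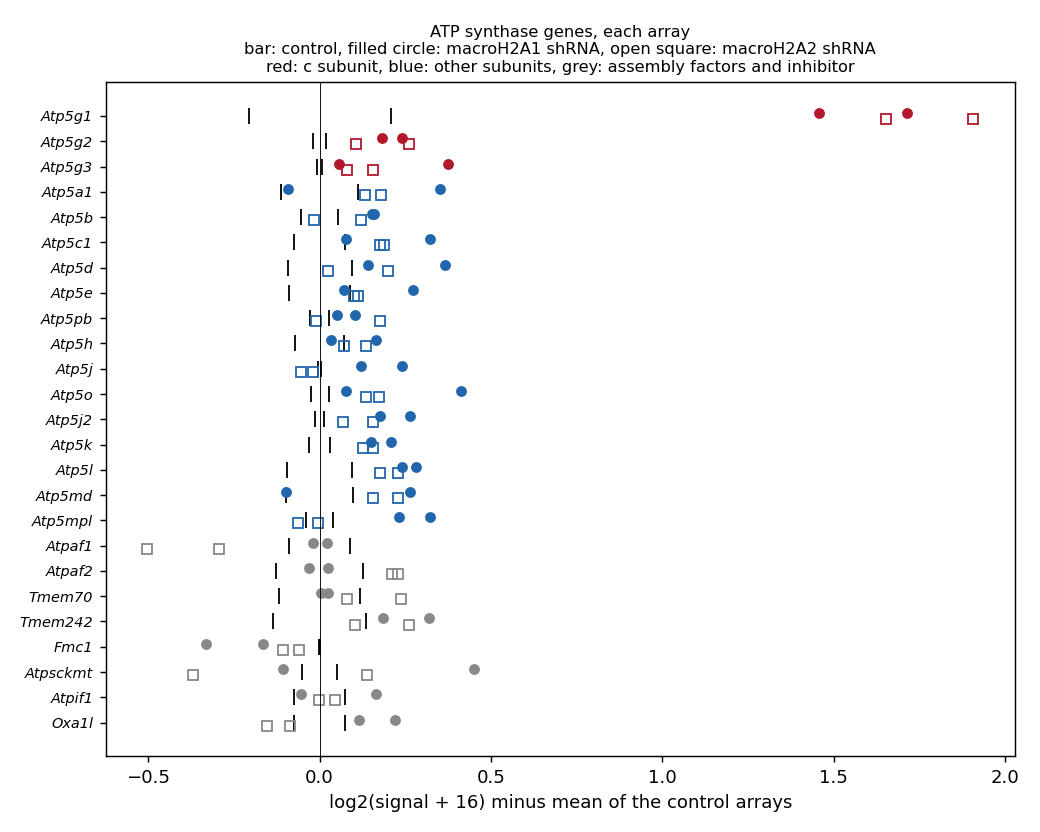
Log2(signal + 16) of each array minus the mean of the control arrays for the c subunit genes (red), the 14 other subunits (blue) and 8 assembly factors and the inhibitor (grey). Vertical bars are the control arrays, filled circles macroH2A1 shRNA and open squares macroH2A2 shRNA. Atp5g1 lies at 1.46 to 1.91, and the group differences of the other subunits lie between -0.04 and 0.28.

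Factors that assemble or restrain the enzyme moved in no common direction. Of 8 tested, 6 were above control in the macroH2A1 hairpin line (median 0.03) and 4 in the macroH2A2 hairpin line (median -0.03), and limma called 0 with or without the block. Of all tested probe sets it called 0.00% without the block and 0.192% and 0.144% with it. Tmem70 and Tmem242, which act in the assembly of the c ring, differed by 0.01 (SE 0.14) and 0.25 (SE 0.15) in the macroH2A1 hairpin line and by 0.16 and 0.18 in the macroH2A2 hairpin line. Atpsckmt, the methyltransferase that modifies subunit c itself, differed by 0.17 (SE 0.26) and -0.12 (SE 0.26). Atpaf1, a chaperone of the F1 beta subunit, read 193.6 and 226.5 in the macroH2A2 hairpin line against 263.1 and 300.1 in control (-0.40, SE 0.16) and was level with control in the macroH2A1 hairpin line (0.00, SE 0.16). Atpif1, the inhibitor of the hydrolase activity, differed by 0.06 and 0.02 (SE 0.12 each).

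Genes upstream of the c ring were examined by lists. Over all tested probe sets limma called 0 of 27025 (0.00%) in either contrast, and 44.4% and 44.3% were above control. Of 15 tested import and presequence-processing genes (16 listed), limma called 0 in either contrast, and 9 and 14 were above control (medians 0.09 and 0.15, or 8 and 12 with medians of 0.00 and 0.14 after quantile normalization). Median centring gave 11 and 14, with medians of 0.15 and 0.22. Mipep, an intermediate peptidase of the matrix, was at 71.8 and 56.2 in the macroH2A1 hairpin line against 101.0 and 111.0 in control (-0.61, SE 0.20), and at 0.13 (SE 0.20) in the macroH2A2 hairpin line. Pmpca and Pmpcb, the subunits of the peptidase that removes such presequences, differed by 0.10 and 0.20 in the macroH2A1 hairpin line and by 0.06 and 0.22 in the macroH2A2 hairpin line. Among 15 regulators of mitochondrial gene expression 0 were called, and 7 and 11 were above control, or 9 and 11 after quantile normalization and 11 and 12 after median centring. Ppargc1a, a coactivator of mitochondrial biogenesis, read 401.3 and 456.6 in control, 284.0 and 350.1 in the macroH2A1 hairpin line and 312.8 and 343.3 in the macroH2A2 hairpin line, so it lay below control on all 4 arrays (-0.42 and -0.37, SE 0.17 each). The unadjusted limma p of Ppargc1a was 0.0354 and 0.0577, and its blocked adjusted p 0.381 and 0.467.

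Genes of ATP exchange and the permeability pore lay near control. Of 7 tested (9 listed), 6 were above control in each line (medians 0.11 and 0.09), but 3 and 4 after quantile normalization (medians -0.01 and 0.01), and 0 were called. Median centring put all 7 above control in each line, with medians of 0.18 and 0.16. Over all tested probe sets, 0.00% were called in either contrast, and 44.4% and 44.3% were above control. Vdac3, a channel of the outer membrane, read 2131.3 and 2279.7 in control, 2891.7 and 2772.9 in the macroH2A1 hairpin line and 2941.0 and 2622.0 in the macroH2A2 hairpin line (0.36 and 0.33, SE 0.11 each), with no overlap with control. Atp6v0b, a proteolipid of the vacuolar ATPase that is related in structure to subunit c, differed by 0.30 and 0.14 (SE 0.19 each) with overlapping arrays. Of 57 tested respiratory chain subunits (62 listed), 52 and 54 were above control (medians 0.10 and 0.13, or 43 and 40 with medians of 0.04 and 0.07 after quantile normalization), and 0 were called. Median centring put 56 of the 57 above control in each line, with medians of 0.17 and 0.20. On the deposited scale the largest difference among these subunits with the macroH2A1 hairpin was that of Cox7a2l, 0.50 (SE 0.15).

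The genes most like Atp5g1 across the 6 arrays were sought by the distance between log2 profiles, each centred on its own mean, over tested probe sets with 1 symbol. The nearest were Pacs2, a membrane sorting protein (distance 0.45, Pearson r 0.985 over 6 arrays), Washc5, a subunit of the WASH complex on endosomes (0.65, r 0.965), Cdk8, the kinase of the Mediator complex (0.69, r 0.954), Larp4, an RNA-binding protein (0.80, r 0.992), and Ripor2 (0.82, r 0.917). For scale, Atp5g1 lay 1.77 from Atp5g2 and 1.82 from Atp5g3. Pacs2 read 96.8 and 107.8 in control, 284.1 and 267.9 in the macroH2A1 hairpin line and 341.1 and 323.4 in the macroH2A2 hairpin line. Washc5 read 680.4 and 1078.3, then 1926.4 and 2356.7, then 1932.1 and 2074.9 in the same order. Both genes, like Atp5g1, thus had a lower replicate 1 than replicate 2 array in control.

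Such likeness was not always shared by other probe sets of these genes. A second probe set of Pacs2 differed from control by -0.04 and -0.20, while 2 further ones of Larp4 differed by 0.56 and 0.55 and by 0.62 and 0.76. Of the further probe sets of Ripor2, the one above the filter differed by 0.95 and 1.08. Nearest to the mirror image of Atp5g1 were Septin4, a septin (distance 0.47, r -0.980), and the chemokines Ccl20 (0.63) and Cxcl2 (0.64). Ccl20, which passed the filter through its control arrays, read 63.5 and 36.5 in control and 0.9 to 10.4 on the arrays of the hairpin lines, and Cxcl2 read 94.8 and 66.1 and then 5.9 to 23.8. With 6 arrays that split into control and other lines, all such profiles share that split, and these coefficients are given as a description only.

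For Atp5g2 the nearest profiles were those of Ube2s, a ubiquitin-conjugating enzyme (distance 0.05, r 0.983), Tomm22, a receptor of the outer membrane import pore (0.05, r 0.984), and Mrps21, a mitochondrial ribosomal protein (0.07, r 0.965). For Atp5g3 they were Pmel, a melanosome matrix protein (0.06, r 0.985), Atp5o, the oligomycin sensitivity subunit of ATP synthase (0.07, r 0.983), and Lgals1, a galectin (0.07, r 0.978). Atp5o read 3384.7 and 3509.8 in control, 3638.2 and 4596.0 in the macroH2A1 hairpin line and 3784.7 and 3885.3 in the macroH2A2 hairpin line, and like Atp5g3 was highest on the macroH2A1 shRNA replicate 2 array. A second probe set of Atp5o differed from control by 0.04 and 0.10. Atp5g2 and Atp5g3 lay 0.26 apart.

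**Figure D3:**
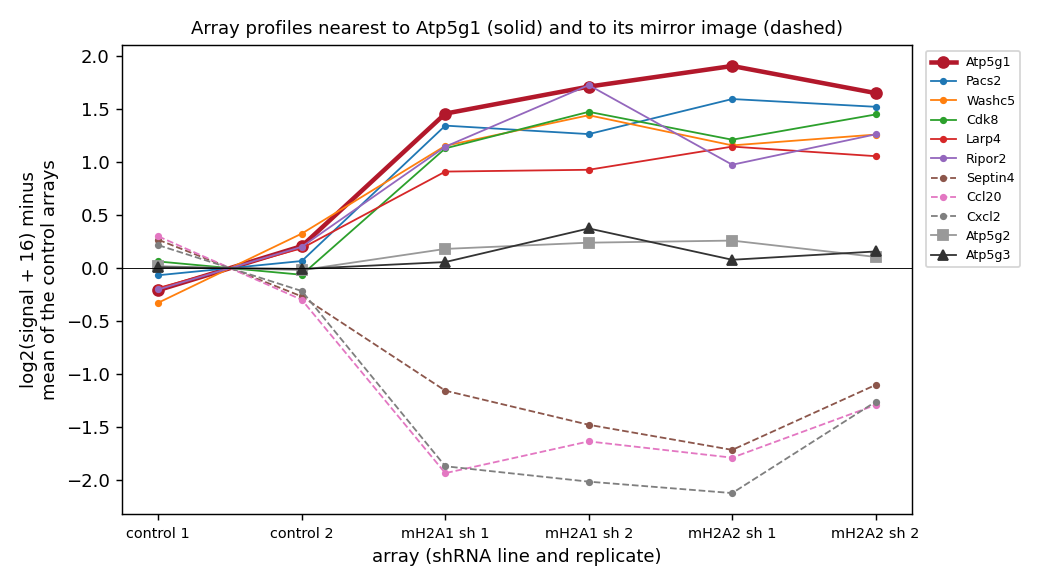
Log2(signal + 16) minus the mean of the control arrays on each of the 6 arrays, for Atp5g1 (thick red), the 5 nearest profiles (solid), the 3 nearest to its mirror image (dashed) and Atp5g2 and Atp5g3 (grey and black). Atp5g1 reaches 1.46 to 1.91 in the macroH2A hairpin lines, where Atp5g2 and Atp5g3 stay at 0.06 to 0.37; lines only join the arrays and mark no order.

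The nearest genes on one side of Atp5g1 lay near control, while those on its other side were dim. In the reference gene order homeobox genes are among the neighbours of each paralog, at unlike distances. Hoxb13 and Hoxb9 lie 118622 and 195636 bp from Atp5g1, and Hoxc13, Hoxc10 and Hoxc9 lie 250084 to 305985 bp from Atp5g2. Evx2, Hoxd13 and Hoxd12 lie 740525 to 762549 bp from Atp5g3. Genes without a probe set of 1 symbol were passed over, so a neighbour here need not be adjacent. On one side of Atp5g1 lie Ube2z, a ubiquitin-like conjugating enzyme, and Snf8, a subunit of the ESCRT-II sorting complex, at 7429 and 25363 bp. Ube2z read 497.4 and 486.3 in control, 503.3 and 517.1 in the macroH2A1 hairpin line and 560.8 and 524.1 in the macroH2A2 hairpin line, a difference of 0.05 (95% interval -0.26 to 0.36) and 0.14 (-0.17 to 0.44). Snf8 differed by 0.04 (-0.28 to 0.37) and 0.11 (-0.22 to 0.43). These intervals end well below the differences of Atp5g1. On its other side Calcoco2, an autophagy receptor, was at 0.3 to 4.2 on all arrays, too dim to be followed, so it shows neither a difference nor its absence. Ttll6 passed the filter only through its macroH2A2 shRNA arrays. It read 11.0 and 9.8 in control, 3.4 and 13.8 in the macroH2A1 hairpin line and 29.0 and 19.7 in the macroH2A2 hairpin line. Its difference was -0.13 (SE 0.30) with macroH2A1 shRNA, with overlapping arrays. With macroH2A2 shRNA it was 0.60 (SE 0.30), above control without overlap, where the limma adjusted p was 1 and 0.521 with the replicate block. Since those arrays carried Ttll6 past the filter, nothing is read from its lying above control there.

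Of 24 neighbours on the array 15 passed the filter, and limma called 0 of them in either contrast with or without the block. Of all tested probe sets it called 0.00% without the block and 0.192% and 0.144% with it. In each contrast 1 neighbour had an unadjusted limma p under 0.05 (4.40% and 3.98% of all probe sets). Both were neighbours of Atp5g3, Lnpk, a protein of endoplasmic reticulum junctions, in the macroH2A1 hairpin line (-0.45, SE 0.15) and Chn1, a Rac-regulating chimaerin, in the macroH2A2 hairpin line (-0.67, SE 0.27). They lie far from it, at 602372 and 133080 bp. Atf2, the transcription factor gene beside Atp5g3, differed by -0.01 and 0.01 (SE 0.13 each). Next to Atp5g2, Atf7 and Calcoco1 differed by 0.28 (SE 0.24) and 0.19 (SE 0.27) in the macroH2A1 hairpin line and by 0.23 and 0.34 in the macroH2A2 hairpin line. Of the homeobox genes named, Hoxb9, Evx2 and Hoxd13 passed the filter. Hoxb9, on the Atp5g1 side, read 18.6 and 18.0 in control, 11.5 and 4.8 in the macroH2A1 hairpin line and 11.3 and 22.6 in the macroH2A2 hairpin line. Its differences were -0.52 and -0.08 (SE 0.29 each). It lay below control without overlap in the macroH2A1 hairpin line, as did 14.9% of all tested probe sets. Evx2 differed from control by -0.10 and -0.02 (SE 0.26 each) and Hoxd13 by 0.01 and -0.07 (SE 0.25 each).

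**Figure D4:**
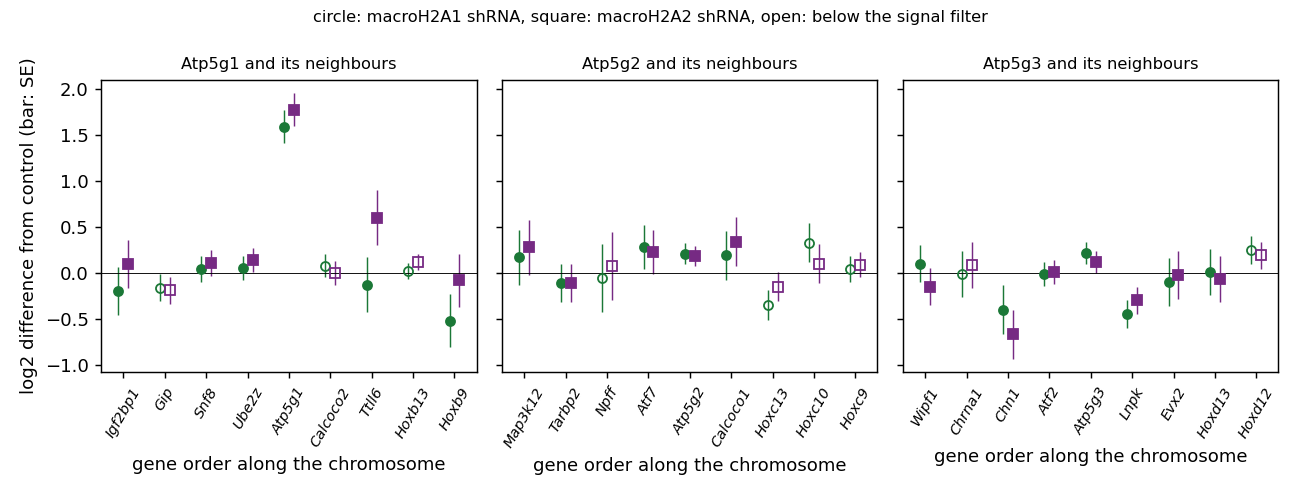
Log2 difference from control for each paralog and the 4 nearest genes on either side that have a probe set with 1 symbol, in gene order and not to distance. Circles are macroH2A1 shRNA, squares macroH2A2 shRNA, bars the SE of the fit, and open symbols genes below the signal filter. Atp5g1 stands at 1.59 and 1.78, and its neighbours Ube2z and Snf8 at 0.04 to 0.14.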

How the data were processed

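RNA of 6 samples, titled as biological replicates, was hybridised to 1-colour Affymetrix arrays. The authors deposited 1 linear intensity per probe set, computed with MAS5 per the submitters' processing notes. Its version and a genome build are not given in the sources used here. Every array had the same 2% trimmed mean, 150.0, and a change in total signal between lines is not visible after such scaling. Array medians were 15.1 to 24.6, and arrays correlated with r from 0.978 to 0.990.

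After 64 control probe sets were left out, signals were analysed as log2(signal + 16), which makes log2 differences of dim probe sets too small. Testing was restricted to probe sets with a mean signal at or above the 40th percentile, 10.4 (27025 of them). A single linear model of 3 group means was fitted to the 6 arrays with limma (version 3.58.1, R 4.3.3, trended empirical Bayes variances), Benjamini-Hochberg adjustment over all tested probe sets and a threshold of 0.05. The fit was tested on simulated data.

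Groups and replicate numbers came from the sample titles. Whether the replicate numbers pair the arrays was checked in the data. Replicate 1 minus replicate 2 differences correlated between lines with r of 0.576, 0.372 and 0.415 over tested probe sets, so the replicate number was taken to pair the arrays, and a blocked fit was run as an alternative. Standard errors, intervals, p-values and calls are from the unblocked fit, which leaves that pairing out, wherever the block is not named. The titles do not say what separates biological replicates, so p-values measure only the spread between these samples, which may be technical.

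Gene names came from the platform annotation, for probe sets with 1 symbol (34945, against 932 with several and 9160 with none). Genes were named from the paralogs, the ATP synthase lists, the 2 genes with the smallest limma p per other list and contrast, the nearest profiles by Euclidean distance and 4 genome neighbours per side. Not every gene that qualified is named, and Tomm70a and Timm44 of the import list are among those left out. Pmpca and Pmpcb were named after their values were seen, and the motifs were picked during the analysis. A gene with several probe sets is represented by its brightest. The members, lists and tests were chosen with earlier results of these data known. Alternatives were quantile normalization, median centring, other pseudocounts and filters, no variance trend, fits of 2 groups, other probe sets, single replicate sets, the block and leaving out each array. The upstream sequences and motif shares are from RefSeq (GRCm38.p6).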

Additional observations from a re-analysis of the deposited data

Results flagged for a closer look

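Atp5j, coupling factor 6 of the peripheral stalk, and Oxa1l, an insertase of the inner membrane, lay above both control arrays on both macroH2A1 shRNA arrays and below both on the macroH2A2 shRNA arrays. Atp5j read 3739.3 and 3718.6 in control, 4053.4 and 4408.0 in the macroH2A1 hairpin line and 3594.2 and 3677.6 in the macroH2A2 hairpin line. The difference between the lines was -0.22 on the log2 scale (SE 0.10). Oxa1l read 176.2 and 157.3, then 181.6 and 196.6, then 155.8 and 148.1, a difference between the lines of -0.29 (SE 0.17). Neither passed the test of that difference, with a limma adjusted p of 1 for each and of 0.773 and 0.870 with the replicate block. In that contrast the arrays of the lines did not overlap, with the macroH2A2 hairpin line lower, for 14.6% of all tested probe sets. This share concerns the macroH2A lines alone and not their position against control.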

How the results depend on the processing

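The Atp5g1 values depend on the bright probe set. With the dim one they were 0.18 and 0.08 (macroH2A1 and macroH2A2 shRNA), and with the mean over both 0.88 and 0.93. For Atp5g2 the dim probe sets gave -0.30 and -0.29 in the macroH2A1 hairpin line and -0.27 and -0.31 in the macroH2A2 hairpin line, and the mean over its probe sets -0.13 in each. Quantile normalization moved Atp5g3 in the macroH2A1 hairpin line to 0.02 and its difference between the macroH2A lines to 0.01. Median centring moved Atp5g2 in the macroH2A2 hairpin line to 0.26.

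Within replicate sets 1 and 2, Atp5g1 in the macroH2A2 hairpin line was 2.11 and 1.44, and Atp5g3 in the macroH2A1 hairpin line 0.05 and 0.38. The excess of Atp5g1 over Atp5g2 in the macroH2A2 hairpin line was 1.87 and 1.32, that over Atp5g3 was 1.62 and 1.12 in the macroH2A1 hairpin line and 2.04 and 1.28 in the macroH2A2 hairpin line. Between the macroH2A lines, Atp5g1 turned to -0.06 in set 2, and Atp5g2 and Atp5g3 to 0.08 and 0.02 in set 1.

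Leaving out 1 array at a time gave 1.38 to 1.79 for Atp5g1 in the macroH2A1 hairpin line and 1.57 to 1.99 in the macroH2A2 hairpin line. The ranges were 0.18 to 0.24 and 0.11 to 0.26 for Atp5g2, and 0.06 to 0.37 and 0.08 to 0.16 for Atp5g3, whose low and high ends in the macroH2A1 hairpin line came without its replicate 2 and without its replicate 1. The excess of Atp5g1 over Atp5g2 ranged from 1.15 to 1.60 and from 1.37 to 1.82, and that over Atp5g3 from 1.15 to 1.58 and from 1.45 to 1.88. Between the macroH2A lines Atp5g1 ranged from 0.07 to 0.32, Atp5g2 from -0.11 to 0.05, with 0.00 without macroH2A1 shRNA replicate 2, and Atp5g3 from -0.26 to 0.06. A lone array of a line is then assumed to vary like the other lines.

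With the replicate block the number of probe sets called was 52, 39 and 1 (macroH2A1 against control, macroH2A2 against control, macroH2A2 against macroH2A1), in place of 0 in each, and with median centring it was 3 in the first. The block changed no call for the paralogs in the tested contrast, and the 21 counts of called genes per list stayed at 0 in all 336 alternatives. Where a fit calls no probe set at all, such counts can only be 0, so they are no sign of stability. The causes of these shifts were not tested. Signals near the filter limit what the dim probe sets can show.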
